A study of Mus musculus with 24 samples.

Results

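The change in gene expression that came with the NFIA knockout genotype in sorted astrocytes was compared between hippocampus and cortex, gene by gene, as the change in hippocampus minus the change in cortex. The comparison rested on 12 of the 24 libraries of the series, chosen by their labels of region and genotype, with 3 libraries in each of 4 groups. All mice were C57BL6, 20 weeks old, homozygous for a floxed Nfia gene (NFIAfl/fl) and carried Aldh1l1-GFP, a fluorescent reporter active in astrocytes. Mice of the 2 knockout groups also carried Aldh1l1-CreER, a Cre recombinase that tamoxifen activates and that the promoter of the astrocyte gene Aldh1l1 drives, whereas mice of the 2 control groups had no Cre. Any treatment of either genotype with tamoxifen is not given in the sources used here. Hippocampus (HC) and cortex (CX) were dissected and dissociated, cells were sorted by fluorescence, and 5 ng of total RNA went into each library. The design text speaks of triplicates, without saying whether the 3 libraries of a group came from separate animals or whether both regions came from the same animals, so p-values measure the spread between these samples, which may be technical.

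NFIA belongs to the nuclear factor I family of transcription factors. It takes part in the switch from neuron to glia production in the developing nervous system, and adult astrocytes keep making it. Astrocytes of hippocampus and cortex share a core of functions, among them clearance of glutamate and buffering of potassium, and differ in the amount of some proteins, of which the intermediate filament GFAP is the best known. Proteins of the family bind DNA as dimers at a palindrome, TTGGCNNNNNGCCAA, in which each partner contacts an arm of 5 bases, TTGGC or, on the other strand, GCCAA.

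The 250 bases upstream of the RefSeq start (build GRCm38.p6, written 5′ to 3′ on the gene's strand) are shown for 4 genes on which the comparison turns, with every arm in capitals. Emp2 (chr16:10313969-10314218, minus strand) and Fam184a (chr10:53750910-53751159, minus strand) changed alike in both regions and had the smallest p for the averaged effect, lower and higher, among such genes with a single promoter in the table. Prelp (chr1:133921402-133921651, minus strand) and Slc5a3 (chr16:92058072-92058321, plus strand) had the smallest p for a difference between the regions in each direction.
Emp2: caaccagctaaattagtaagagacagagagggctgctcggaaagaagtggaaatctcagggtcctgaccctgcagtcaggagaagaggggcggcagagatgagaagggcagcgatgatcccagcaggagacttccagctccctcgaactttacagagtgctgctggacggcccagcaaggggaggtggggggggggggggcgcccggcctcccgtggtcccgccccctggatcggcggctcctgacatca
Fam184a: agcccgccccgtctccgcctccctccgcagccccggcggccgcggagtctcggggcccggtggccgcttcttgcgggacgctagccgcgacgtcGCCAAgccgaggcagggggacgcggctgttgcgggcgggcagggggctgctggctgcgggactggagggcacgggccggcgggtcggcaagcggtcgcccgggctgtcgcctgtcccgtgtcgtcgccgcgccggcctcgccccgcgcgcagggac
Prelp: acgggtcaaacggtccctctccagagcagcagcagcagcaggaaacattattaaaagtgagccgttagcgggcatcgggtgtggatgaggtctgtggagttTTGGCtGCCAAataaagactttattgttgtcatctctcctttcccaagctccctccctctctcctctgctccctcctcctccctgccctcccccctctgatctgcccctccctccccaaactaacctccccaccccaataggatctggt
Slc5a3: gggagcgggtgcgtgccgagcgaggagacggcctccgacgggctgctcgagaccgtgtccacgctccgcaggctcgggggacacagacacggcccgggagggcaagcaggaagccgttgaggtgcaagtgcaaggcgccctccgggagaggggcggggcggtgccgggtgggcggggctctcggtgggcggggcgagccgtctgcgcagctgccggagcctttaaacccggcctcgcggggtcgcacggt
No arm was found in the windows of Emp2 and Slc5a3, 1 in that of Fam184a and 2, standing 1 base apart, in that of Prelp. The whole palindrome was present in 12 of 27025 genes with a RefSeq promoter window of this length (0.0444%). It was in none of the 50 genes with a window that were lower in both regions by the definition of likeness given below. It was also in none of the 101 that were higher in both. A gene with several starts counted if any of its windows held the letters. A single arm, which the palindrome also contains, was present in 45.3% of all these genes, in 50.4% of the 9451 of them that were tested, in 35 of the 50 (70%) and in 52 of the 101 (51.5%). These are counts of letters, and no test was made of them.

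Each file was turned back into whole reads, between 3287872 and 24297573 per library, with the cortical libraries at most 7179349. The ribosomal RNA gene Rn45s took 17.7% to 20.9% of reads in cortex and 0.966% to 2.87% in hippocampus, a difference that cannot be told apart from the region. All 9 defining astrocyte markers had reads, with summed levels of 400926 to 911894 normalised reads over the 12 libraries. Nfia itself was higher, not lower, in the libraries labelled knockout, with hippocampal controls at 6027, 9934 and 8988 normalised reads against 14153, 15647 and 17837, and cortical controls at 7687, 8831 and 9378 against 13372, 15103 and 14023. The tables count reads over the whole gene, so reads from a deleted exon cannot be separated, and genotypes are given here as labelled.

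Markers of choroid plexus epithelium, the fluid-secreting tissue of the ventricles, moved with genotype in hippocampus and set 1 cortical library apart. The 9 markers summed to 143809 to 296191 normalised reads in hippocampal controls and to 4817 to 12665 in hippocampal libraries labelled knockout. In cortex they summed to 127806 in control 1, to 4555 and 11298 in the other controls and to 1494 to 16372 in the libraries labelled knockout. None of the 9 was at 0 in all 12 libraries, and in bulk samples fewer cells of a type and less RNA per cell cannot be told apart. Results are therefore given with and without cortical control 1. The part of these markers in the results was not tested, because in hippocampus their level and the genotype cannot be told apart.

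In both regions the libraries labelled knockout held less RNA than controls of the monoamine oxidase Maob, the membrane protein Emp2, the crystallin Cryab and the intermediate filament Gfap, and more of the tetraspanin Tspan18, the Slit receptor Robo2 and Nfia. Folds were 2.65 in hippocampus and 2.92 in cortex for Maob, and 2.70 and 2.84 for Tspan18. The matrix proteoglycan Prelp and the potassium channel partner Kcnip3 were lower in cortex, by folds of 2.69 and 2.88, with 1.21 and 1.14 in hippocampus. The inositol transporter Slc5a3 was lower in hippocampus, by a fold of 2.31, and had a higher mean in cortex, by 1.35. With all 12 libraries, these differences between regions did not pass in limma, the main test, or in edgeR, but passed in DESeq2.

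Among 12397 genes tested, 0 (0%) differed between the regions in their genotype effect at an adjusted p under 0.05 (limma on log2 values, Benjamini-Hochberg over all genes), and the smallest adjusted p was 0.0814. At an unadjusted p under 0.05 there were 986 (7.95%), of which 491 (3.96%) were positive, the change being more upward in hippocampus, and 495 (3.99%) negative. edgeR's quasi-likelihood test on the recovered reads likewise called 0 genes (0%), with 918 (7.41%) at an unadjusted p under 0.05, and limma-voom called 0. DESeq2 called 34 of 12382 (0.275%), 14 positive and 20 negative, all with the same sign in limma. Without cortical control 1, limma called 42 of 12287 (0.342%), 5 positive (0.0407%) and 37 negative (0.301%), with 590 positive (4.8%) and 642 negative (5.23%) at an unadjusted p under 0.05, while edgeR called 28 and DESeq2 150. The precision of a single gene was limited: the 95% interval of the difference had a median width of 0.89 to either side on the log2 scale, and was wider than 1 to either side for 42.8% of genes.

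Within each region the same fit called more genes in hippocampus. There, 531 genes (4.28%) passed, 222 (1.79%) higher and 309 (2.49%) lower in the libraries labelled knockout. In cortex 74 (0.597%) passed, 26 (0.21%) higher and 48 (0.387%) lower. In all, 46 (0.371%) passed in both regions, all in the same direction, 20 higher and 26 lower, which is 8.66% of the hippocampal and 62.2% of the cortical calls. No gene was called in opposite directions. The effect had the same sign in cortex for 464 of the 531 hippocampal calls (87.4%), and the same sign in hippocampus for 72 of the 74 cortical calls (97.3%), beside 56.6% of all genes tested. A call in hippocampus alone is no difference between the regions: of 485 such genes, 218 had an unadjusted p of 0.05 or more for the difference.

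Each set of calls was chosen by its effect in 1 region, which raises the size on that side. Genes called higher in hippocampus had a median effect of 0.81 (log2) there and 0.32 in cortex, and genes called lower had -1.74 there and -0.49 in cortex. Genes called higher in cortex had 1.13 in cortex and 0.98 in hippocampus, and genes called lower there -1.31 and -0.76. Of the 309 genes called lower in hippocampus, 148 had a hippocampal control mean over 2 times the cortical control mean, beside 6.04% of all genes tested; the hippocampal controls enter both the call and this ratio. Leaving out 1 library at a time gave 197 to 571 hippocampal calls, the fewest without hippocampal knockout 3, and 28 to 128 cortical calls, the most without hippocampal control 1. With a score of 5 choroid plexus genes as a covariate, 0 hippocampal calls were left. In hippocampus the level of choroid plexus markers and the genotype cannot be told apart, so this fit cannot show their part in the calls.

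**Figure D1:**
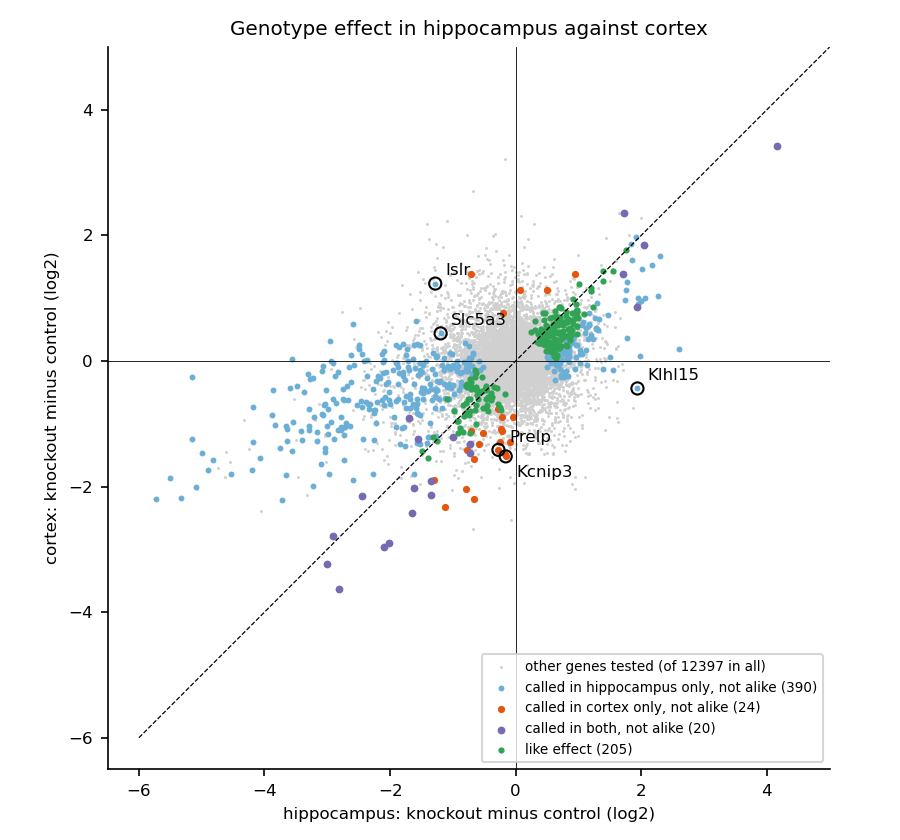
Each point is 1 of the 12397 genes tested, with the genotype effect (labelled knockout minus control, log2) in hippocampus on the x axis and in cortex on the y axis; the dashed line marks equal effects. The 205 genes with a like effect lie near the line, many genes called only in hippocampus lie far to the left with smaller cortical effects, and the 5 circled genes had the smallest p for the difference.

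The 5 genes with the smallest p for the difference were Prelp, Kcnip3, Slc5a3, Islr and Klhl15, none of which passed the adjusted threshold in limma with all 12 libraries. All 5 passed in DESeq2, and the first 4 passed in limma without cortical control 1. They showed 3 shapes: lower in cortex with little change in hippocampus, lower in hippocampus with a higher mean in cortex, and higher in hippocampus with a lower mean in cortex.

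Prelp (chr1:133910304-133921414, minus strand, GRCm38) encodes a leucine-rich proteoglycan of the extracellular matrix. Cortical controls held 2729, 2223 and 1994 normalised reads and cortical libraries labelled knockout 765, 981 and 838. Hippocampal controls held 2566, 2727 and 2788 and hippocampal libraries labelled knockout 2249, 2028 and 2419. The groups did not overlap in either region, but the distance between them was far smaller in hippocampus, where the fold was 1.21, against 2.69 in cortex. Of all genes tested, 19.9% had groups that did not overlap in hippocampus and 14.6% in cortex. The effect was -1.42 ± 0.14 (log2, SE) in cortex (adjusted p = 1.68e-05, limma) and -0.27 ± 0.14 in hippocampus (adjusted p = 0.358). The difference was 1.14 (95% interval 0.73 to 1.56, adjusted p = 0.0814), and 1.02 without cortical control 1 (adjusted p = 0.0285). It passed in 3 of the 12 limma fits that left out 1 library (highest adjusted p 0.264).

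Kcnip3 (chr2:127456498-127522094, minus strand) encodes a calcium-binding partner of A-type potassium channels that also binds DNA. Its cortical values fell from 1635, 1998 and 2064 in controls to 570.5, 685 and 721 in the libraries labelled knockout (effect -1.52 ± 0.17, adjusted p = 0.00011, limma). In hippocampus the values were 1219, 2121 and 1734 in controls and 1306, 1607 and 1534 in the libraries labelled knockout, and the groups overlapped, control 1 being the lowest of the 6. The difference was 1.36 (0.85 to 1.87, adjusted p = 0.0814). It passed in 4 of the 12 fits that left out 1 library, those without any one of the hippocampal controls and that without cortical control 1, where it was 1.46 (adjusted p = 0.0123).

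Slc5a3 (chr16:92058322-92087473, plus strand) encodes the sodium-coupled transporter of myo-inositol, an osmolyte. Hippocampal controls held 656, 449 and 636 normalised reads and hippocampal libraries labelled knockout 245, 196 and 313. In cortex the order was the other way, with 307, 209.9 and 263 in controls and 383, 322 and 347 in the libraries labelled knockout, and the groups overlapped in neither region. The hippocampal effect was -1.20 ± 0.21 (adjusted p = 0.00273, limma) and the cortical one 0.44 ± 0.21 (adjusted p = 0.633). The difference was -1.63 (-2.26 to -1.01, adjusted p = 0.0814). Its control mean was 2.23 times as high in hippocampus as in cortex. The transporter is also abundant in choroid plexus, whose summed markers were also lower in the hippocampal libraries labelled knockout and whose part in the result was not tested. Without cortical control 1 the difference was -1.76 (adjusted p = 0.0134). Of the 12 limma fits that left out 1 library, Slc5a3 passed only in that 1 (highest adjusted p 0.316).

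Islr (chr9:58156268-58204306, minus strand) encodes a secreted protein with an immunoglobulin domain and leucine-rich repeats that is best known from mesenchymal cells. It was a low gene, with hippocampal controls at 63.3, 70.7 and 102 normalised reads and hippocampal libraries labelled knockout at 19.3, 39.6 and 30.5. Cortical controls held 91.6, 62.6 and 78.6 and cortical libraries labelled knockout 167, 210.3 and 186, so that the groups did not overlap in either region and moved in opposite directions. The hippocampal effect was -1.28 ± 0.33 (adjusted p = 0.0291, limma) and the cortical one 1.23 ± 0.33 (adjusted p = 0.112). The difference was -2.51 (-3.48 to -1.54, adjusted p = 0.0814), and -2.63 without cortical control 1 (adjusted p = 0.0218). Of the 12 limma fits that left out 1 library, Islr passed only in that 1 (highest adjusted p 0.376). Beside it, 8 markers of endothelial, mural and fibroblast cells summed to 669 to 4333 normalised reads in hippocampal controls, 987 to 2677 in hippocampal libraries labelled knockout, 819 to 2341 in cortical controls and 1154 to 3746 in cortical libraries labelled knockout; none was at 0 in all 12 libraries, and their part in the result was not tested.

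Klhl15 (chrX:94234599-94277724, plus strand) encodes a substrate adaptor of a cullin ubiquitin ligase. Hippocampal controls held 41.4, 36.0 and 20.7 normalised reads against 127, 168 and 116 in the libraries labelled knockout, with no overlap. Cortical controls held 125, 77.9 and 122 against 77.1, 98.7 and 59.7, and overlapped. The hippocampal effect was 1.94 ± 0.34 (adjusted p = 0.00258, limma), the cortical one -0.44 ± 0.34 (adjusted p = 0.831) and the difference 2.38 (1.38 to 3.38, adjusted p = 0.134). The hippocampal libraries labelled knockout overlapped the range of the cortical controls, whose mean was 108 against 32.7 in hippocampal controls. It passed in none of the 12 fits that left out 1 library.

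**Figure D2:**
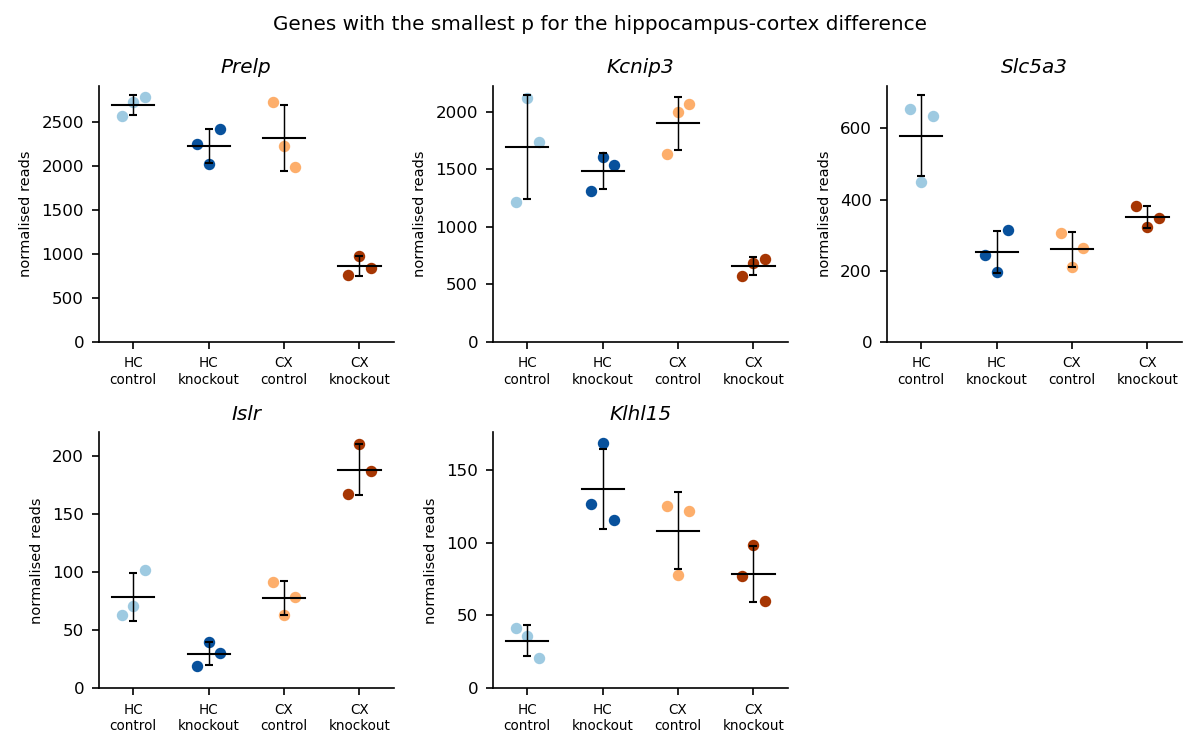
Normalised reads (y axis, starting at 0) of the 5 genes with the smallest p for the difference between regions, by group (x axis). Points are libraries and bars are means ± SD (n = 3); Prelp and Kcnip3 are low only in the cortical libraries labelled knockout, and Islr and Slc5a3 move in opposite directions in the 2 regions.

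Other genes with small p-values for the difference are named here after their values were seen. Among the 34 that DESeq2 called, Slc14a1, a urea transporter, had a limma effect of -0.086 in hippocampus and -1.29 in cortex, and Cyp2d22, a cytochrome P450, -0.18 in hippocampus and -1.48 in cortex, the same shape as Prelp. Six3, a homeobox transcription factor of the forebrain, had -2.62 in hippocampus and 0.10 in cortex. Cdh4, a cadherin, passed in both regions, at 1.93 in hippocampus and 0.86 in cortex (unadjusted p = 0.000324 for the difference). Lars2 and Mir6236, also among the 34, are, like Rn45s, names known to collect ribosomal reads. Rn45s took 0.966% to 2.36% of reads in hippocampal controls and 2.25% to 2.87% in hippocampal libraries labelled knockout. In cortex it took 19.0% to 20.9% in controls and 17.7% to 20.0% in libraries labelled knockout. The part of ribosomal reads in the difference of Lars2 and Mir6236 was not tested.

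Of the 42 genes called without cortical control 1, 37 had a negative and 5 a positive difference. Of the negative ones, 33 had a hippocampal control mean over 2 times the cortical control mean of all 3 libraries, beside 6.04% of all genes tested, but the controls of both regions enter the difference, so the choice of these genes largely fixes that count. Aqp1, a water channel, was among the 42 with a difference of -4.39 (adjusted p = 0.033), and Kcne2, a potassium channel subunit, with -4.29. Both are in the choroid plexus gene list described below, as are 5 others of the 42. That count covers members of the list only, and says nothing of genes outside it. With all 12 libraries the difference was -3.17 for Aqp1 and -3.18 for Kcne2. The summed choroid plexus markers of the remaining cortical controls, 4555 and 11298, lay within the range of the cortical libraries labelled knockout, and their part in these calls was not tested. The 5 positive genes were Prelp, Kcnip3, Slc14a1, Emx2os and Chgb.

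Likeness was defined by the interval of the difference, since a missed threshold does not show it: a gene counted as alike when its effect averaged over both regions passed the threshold and the 95% interval of the difference lay wholly within 1 of 0 on the log2 scale, that is within 2-fold. The averaged effect passed for 548 genes (4.42%), 231 (1.86%) higher and 317 (2.56%) lower. Of these, 205 (1.65%) were alike, 143 (1.15%) higher and 62 (0.5%) lower, while for the other 343 the interval reached beyond 1. All 205 had the same sign in both regions. Taken 1 region at a time, 26 of them were called in both, 95 in hippocampus only, 4 in cortex only and 80 in neither. The interval lay within these bounds for 36.2% of all genes tested, so likeness was also a matter of precision. The groups overlapped in neither region for 156 of the 205 (76.1%), beside 4.08% of all genes. The same libraries enter the definition of likeness, so the choice of these genes largely fixes that count. For 19 of the 205 the unadjusted p for the difference was under 0.05, beside 7.95% of all genes tested. Likeness here means within 2-fold and not equal. There were 121 alike genes without cortical control 1, 110 of them among the 205. With the choroid plexus score as a covariate there were 6, with 0 higher and 6 lower, and 3 of them were among the 205. In hippocampus that score and the genotype cannot be told apart.

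Genes lower in both regions were led by Maob, which encodes monoamine oxidase B, an outer mitochondrial membrane enzyme abundant in astrocytes. Maob was at 1319, 1536 and 1379.5 normalised reads in hippocampal controls and 487, 597 and 512 in the libraries labelled knockout, and in cortex at 1362, 1503 and 1367 in controls and 385, 524 and 541 in the libraries labelled knockout. The ranges of the 2 regions overlapped within each genotype, and the genotypes overlapped in neither region. The averaged effect was -1.48 ± 0.11 (adjusted p = 1.21e-07, limma) and the difference 0.15 (-0.30 to 0.59).

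Emp2, a membrane protein with 4 spans related to PMP22, was at 690.3, 872 and 826 in hippocampal controls and 299, 258 and 401 in the libraries labelled knockout, and in cortex at 885, 1099 and 1098 and 406, 527 and 391. Its mean was higher in cortex in both genotypes, and the difference in effect was -0.11 (-0.64 to 0.43). Cryab, the small heat shock protein alpha-B crystallin, was at 1447, 1493 and 1075 in hippocampal controls and 545, 582 and 321 in the libraries labelled knockout, and in cortex at 1291, 1420.5 and 1231 and 628, 473 and 384, with a difference of -0.066 (-0.70 to 0.56). The averaged effects were -1.27 for Emp2 and -1.46 for Cryab (adjusted p = 7.92e-06 and 1.22e-05, limma).

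Further genes fell by the averaged test and were alike. Timp2, an inhibitor of matrix metalloproteinases, had effects of -0.73 in hippocampus and -1.15 in cortex. Agt, the angiotensin precursor that astrocytes secrete, had -1.26 in hippocampus and -1.27 in cortex, with a difference of 0.019 (-0.79 to 0.83). Gas6, a ligand of TAM receptor kinases, had -1.10 in hippocampus and -0.61 in cortex, a difference of -0.48 whose interval of -0.99 to 0.02 just stayed within the bounds. Thrsp, a regulator of lipid synthesis (-0.91 in hippocampus and -0.95 in cortex), Tprkb, a partner of a p53-related kinase (-0.92 in hippocampus and -1.14 in cortex), Vldlr, a receptor of reelin and lipoproteins (-0.73 in hippocampus and -0.79 in cortex), and Trp53bp2, a p53-binding protein (-0.52 in hippocampus and -0.75 in cortex), were of the same kind. Maob, Emp2, Cryab, Timp2, Agt, Thrsp, Tprkb, Vldlr and Trp53bp2 were also called in each region on its own.

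Among genes higher in both regions, Tspan18, a tetraspanin, went from 92.8, 80.6 and 72.6 to 214, 227 and 222 in hippocampus and from 62.5, 59.3 and 70.3 to 195, 177 and 174 in cortex. The folds were 2.70 and 2.84, and the difference was -0.054 (-0.77 to 0.66). Fam184a went from 373, 295 and 370.2 to 754, 781 and 914 in hippocampus and from 568, 489 and 513 to 858, 1080.1 and 939.6 in cortex, and its averaged effect was 1.05 ± 0.11 (adjusted p = 1.18e-05, limma). Its cortical controls were all above its hippocampal controls, and its fold was 2.36 in hippocampus and 1.83 in cortex.

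Receptors and secreted factors of axon guidance and Wnt signalling were among the alike genes. Robo2, a receptor of Slit proteins, was at 367, 483 and 579 in hippocampal controls and 866, 1155 and 1247 in the libraries labelled knockout, and in cortex at 406, 565 and 662 and 1022, 1436 and 1197 (difference 0.023, -0.58 to 0.62). Unc5c, a netrin receptor, had effects of 1.54 in hippocampus and 1.43 in cortex. Sfrp1, a secreted inhibitor of Wnt proteins, had the largest averaged effect of the alike genes, 1.76 ± 0.21 (adjusted p = 0.000775, limma), and rose from a mean of 609 to 2133 in hippocampus and from 1619 to 5250.1 in cortex. The interval of its difference, -0.94 to 0.94, nearly filled the bounds. Fzd2, a Wnt receptor, had 0.82 in hippocampus and 0.62 in cortex, and Wnt7a, a Wnt ligand, 0.64 in hippocampus and 0.71 in cortex, a call of the averaged effect that 10 of the 12 fits without 1 library lost (highest adjusted p 0.137).

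Nfia itself met the definition, with effects of 0.96 in hippocampus and 0.72 in cortex and a difference of 0.24 (-0.24 to 0.72). Nfib, another member of the family, was alike at a smaller size (0.41 in hippocampus and 0.35 in cortex), and 5 of the 12 fits without 1 library lost its averaged call (highest adjusted p 0.100). Nfic had 0.36 in hippocampus and 0.25 in cortex and did not pass for the averaged effect (adjusted p = 0.102), nor did Nfix, with 0.33 in hippocampus and -0.062 in cortex (adjusted p = 0.553, and an unadjusted p of 0.0477 for the difference). Also alike were Fabp7, a fatty acid binding protein of radial glia and astrocytes (0.97 in hippocampus and 0.43 in cortex), Bhlhe40, a transcriptional repressor (0.87 in hippocampus and 0.46 in cortex), and Adgrb1, an adhesion receptor that takes part in engulfment (0.87 in hippocampus and 0.51 in cortex). All 3 had the larger effect in hippocampus, and in Fabp7 and Bhlhe40 the interval of the difference stayed above 0, at 0.15 to 0.93 and 0.028 to 0.79.

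**Figure D3:**
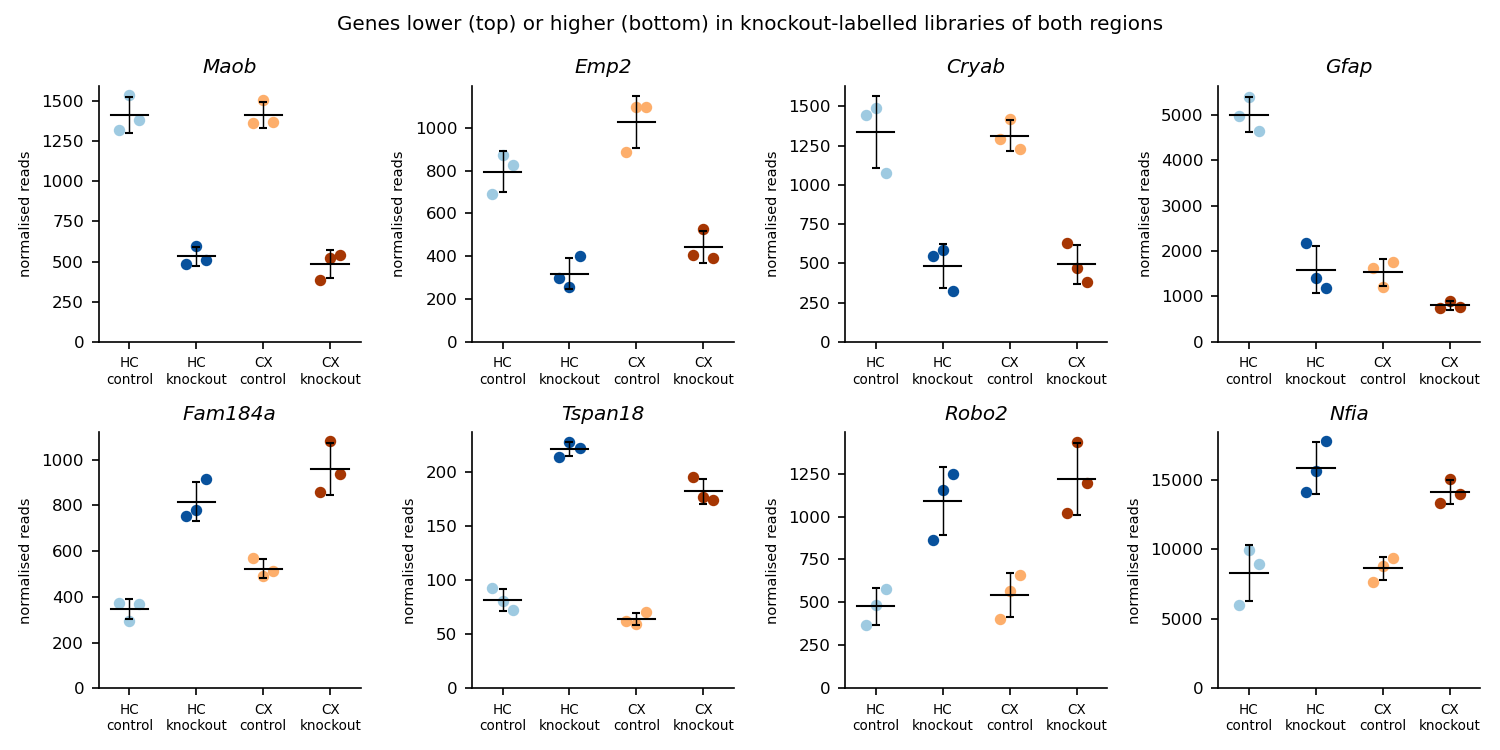
Normalised reads (y axis, starting at 0) of 8 genes by group (x axis), with points for libraries and bars for means ± SD (n = 3). Maob, Emp2, Cryab and Gfap are lower and Fam184a, Tspan18, Robo2 and Nfia higher in the libraries labelled knockout of both regions, without overlap; Gfap starts from a higher control level in hippocampus.

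Gfap, the intermediate filament that marks hippocampal and reactive astrocytes, fell in both regions but was not alike. Hippocampal controls held 4961, 5397 and 4632 normalised reads and hippocampal libraries labelled knockout 2167, 1413 and 1185. Cortical controls held 1627, 1199 and 1766 and cortical libraries labelled knockout 740.1, 906 and 758. The hippocampal libraries labelled knockout thus overlapped the range of the cortical controls. The effect was -1.70 ± 0.19 in hippocampus (adjusted p = 0.000106, limma) and -0.92 ± 0.19 in cortex (adjusted p = 0.0246), with a difference of -0.78 (-1.33 to -0.22, unadjusted p = 0.00847, adjusted p = 0.442). Of all genes tested, 7.95% had an unadjusted p under 0.05 for the difference. Gfap was 1 of 5 such genes among the 46 called in both regions. The others were Cdh4, larger in hippocampus, and Lcat, Scara3 and Hsd11b1, larger in cortex; Lcat, an enzyme of cholesterol esterification, had -0.72 in hippocampus and -1.33 in cortex. Of the 46, 26 were alike, and 26 had the larger absolute effect in cortex and 20 in hippocampus.

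**Figure D4:**
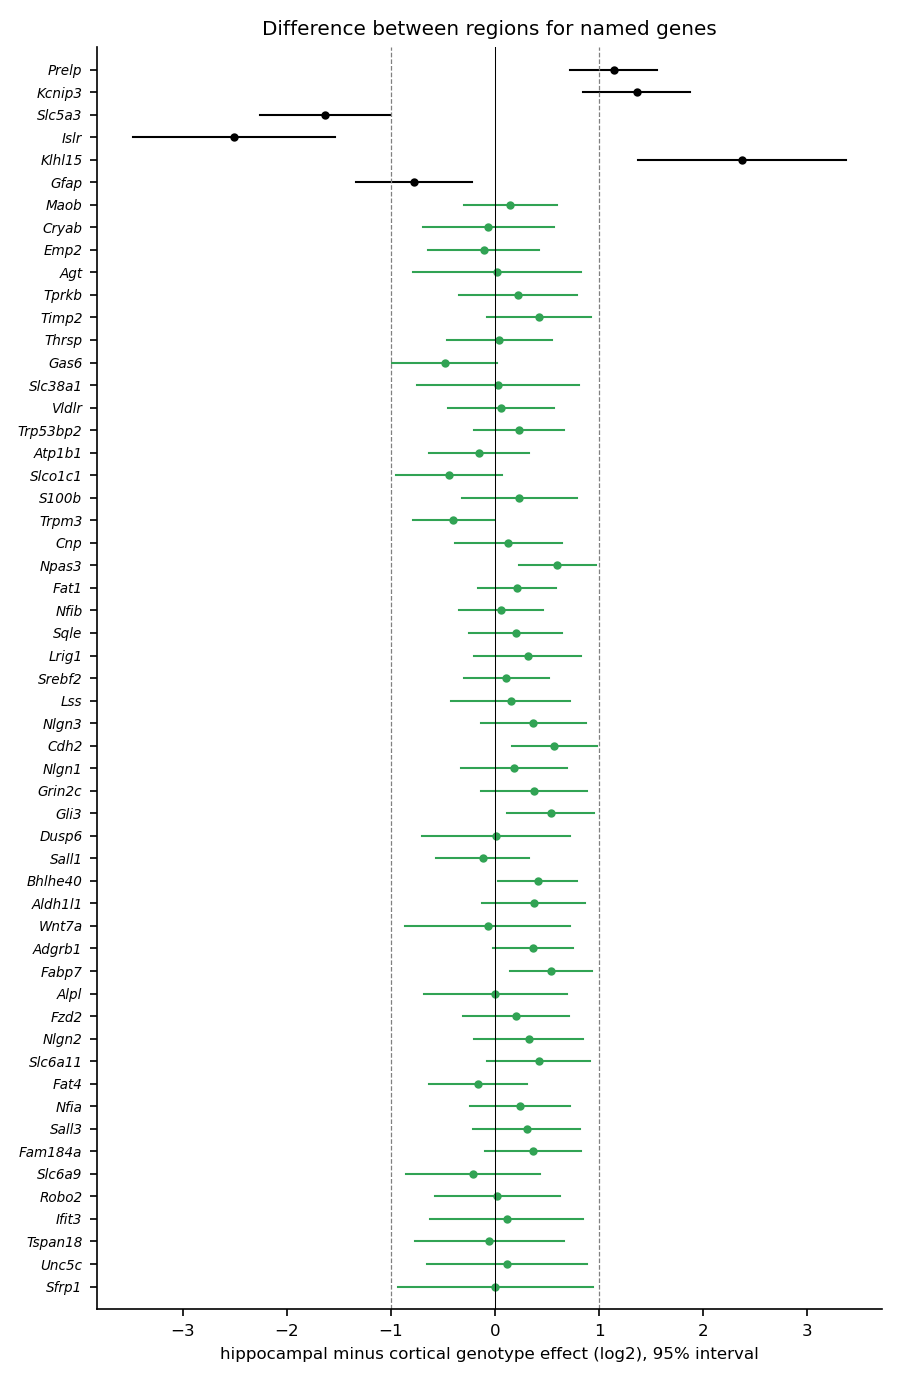
Difference between the hippocampal and the cortical genotype effect (x axis, log2, dot with 95% interval) for the 5 genes with the smallest p, Gfap and named genes with a like effect (green), the latter ordered by averaged effect from lowest to highest. Dashed lines mark the bounds of -1 and 1, within which every green interval lies; the intervals of the other 6 reach beyond them.

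Gene lists were described by their counts and medians, beside medians over all genes tested of 0.0076 in hippocampus, -0.0040 in cortex and 0.015 for the difference. In the astrocyte core list of uptake, metabolism and channel genes, 37 genes were tested. Of these, 7 rose and 1 fell in hippocampus, and 0 rose and 2 fell in cortex. The median effect was 0.39 in hippocampus and -0.16 in cortex. At an unadjusted p under 0.05 the difference was positive for 14 and negative for 1, the latter being Gfap, and none passed after adjustment. Slc1a3, the glutamate transporter GLAST, rose in hippocampus (0.85, adjusted p = 0.00811, limma) and had 0.23 in cortex (adjusted p = 0.828), with a difference of 0.62 (0.11 to 1.13, adjusted p = 0.531).

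Hippocampal control 1 was the lowest of all 12 libraries in the astrocyte marker sum, to which Slc1a2 gave most reads. Among members of that sum, its values were the lowest of the hippocampal controls for Slc1a3 (19209, 31571 and 34928 normalised reads), Slc1a2 (304022, 529032 and 533186) and Aqp4 (6859, 11286 and 12868). Slc1a2, the transporter GLT-1, had effects of 0.10 in hippocampus and -0.31 in cortex, and Aqp4, the astrocyte water channel, 0.42 in hippocampus and 0.13 in cortex, with no call in either. Aldh1l1, the folate enzyme whose promoter drove both transgenes, rose by the averaged test and was alike (0.86 in hippocampus and 0.49 in cortex), and S100b, a calcium-binding protein, fell by it and was alike (-0.39 in hippocampus and -0.62 in cortex, adjusted p = 0.0332), a call that 9 of the 12 fits without 1 library lost (highest adjusted p 0.0890). The part of the lower astrocyte signal of hippocampal control 1 in the list's hippocampal values was not tested. Without that library, 4 genes were called for the difference, all positive.

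Transcription factors of astrocytes also had a positive median difference. Of 36 tested, 6 rose in hippocampus and 1 in cortex, with medians of 0.39 and 0.071, and the difference was positive for 10 and negative for 0 at an unadjusted p under 0.05. The 4 alike genes of the list were Sall3 (0.99 in hippocampus and 0.69 in cortex) and Sall1 (0.59 in hippocampus and 0.71 in cortex), zinc finger factors, Gli3, an effector of hedgehog signalling (0.86 in hippocampus and 0.33 in cortex), and Npas3, a bHLH-PAS factor (0.65 in hippocampus and 0.049 in cortex). Npas3 shows what the definition allows: hippocampal controls held 808, 896 and 913 normalised reads and the libraries labelled knockout 1367, 1349 and 1388, while cortical values of 865, 801 and 842 and 848, 888 and 858 overlapped, and the interval of the difference was 0.23 to 0.97. Its averaged call was lost in 7 of the 12 fits without 1 library (highest adjusted p 0.0717).

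Receptors of transmitters had medians of 0.32 in hippocampus and -0.32 in cortex over 28 genes and 8 positive and 0 negative differences at an unadjusted p under 0.05. Gabbr2, a subunit of the GABA-B receptor, was named after its values were seen: it fell in cortex (-1.30, adjusted p = 0.00362, limma) and had -0.25 in hippocampus, with an unadjusted p of 0.00192 for the difference. Grin2c, an NMDA receptor subunit, was alike (0.74 in hippocampus and 0.36 in cortex).

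Genes of transmitter uptake and metabolism had alike members in both directions, 3 higher and 4 lower of 31 tested, beside 1.15% and 0.5% of all genes tested, and 4 positive and 4 negative differences at an unadjusted p under 0.05. Slc6a11, the GABA transporter GAT3, rose from a mean of 6169 to 11872 in hippocampus (0.98), and its means were 8540.4 and 12523 in cortex (0.56, adjusted p = 0.205). Slc6a9, the glycine transporter GLYT1, rose in both regions, with 1.01 in hippocampus and 1.22 in cortex. Slc38a1, a glutamine transporter, was lower by the averaged test (-0.78 in hippocampus and -0.81 in cortex), a call lost in 3 of the 12 fits without 1 library (highest adjusted p 0.0530). Enzymes of cholesterol synthesis had 5 alike genes of 26, all higher, beside 1.15% of all genes tested, among them Srebf2, their transcriptional regulator (0.53 in hippocampus and 0.42 in cortex). The enzymes Sqle (0.50 in hippocampus and 0.31 in cortex) and Lss (0.59 in hippocampus and 0.44 in cortex) lost the averaged call in 10 and 7 of the 12 fits without 1 library (highest adjusted p 0.0919 and 0.0957). The list's medians were 0.44 in hippocampus and 0.14 in cortex.

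The potassium, water and gap junction list had 0 alike genes higher and 2 lower of 26 tested, beside 1.15% and 0.5% of all genes tested. They were Trpm3, a cation channel (-0.65 in hippocampus and -0.25 in cortex), and Atp1b1, a subunit of the sodium pump (-0.62 in hippocampus and -0.46 in cortex). The list's medians were 0.30 in hippocampus and -0.11 in cortex. The purine, glucocorticoid and thyroid hormone list had 1 alike gene higher and 1 lower of 24 tested. The lower one was Slco1c1, a thyroid hormone transporter (-0.73 in hippocampus and -0.29 in cortex), whose averaged call was lost in 2 of the 12 fits without 1 library (highest adjusted p 0.0655).

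The matrix and adhesion list had 6 alike genes higher and 0 lower of 49 tested, beside 1.15% and 0.5% of all genes tested. The protocadherin Fat4 rose in both regions (0.70 in hippocampus and 0.86 in cortex), while N-cadherin, Cdh2, had 0.81 in hippocampus and 0.24 in cortex, with only the hippocampal effect past the threshold (difference 0.57, 0.16 to 0.98). The neuroligins Nlgn1 (0.64 in hippocampus and 0.46 in cortex), Nlgn2 (0.91 in hippocampus and 0.59 in cortex) and Nlgn3 (0.71 in hippocampus and 0.34 in cortex), adhesion proteins that astrocytes share with neurons, all met the definition.

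Interferon-response and reactive-astrocyte genes had a negative median difference. Of 33 interferon-response genes tested, 2 rose and 3 fell in hippocampus and 2 rose in cortex, with medians of -0.44 and 0.31 and 8 negative differences at an unadjusted p under 0.05 and 0 positive. Ifit3, an interferon-induced antiviral protein, had no such difference (0.11, -0.62 to 0.85) and was alike. It rose from 70.0, 104 and 84.7 to 172, 244 and 298 in hippocampus and from 102, 132 and 122 to 273, 299 and 311 in cortex. Its near-identical neighbour Ifit3b had 1.71 in hippocampus and 1.39 in cortex, and reads may be split between the copies. The reactive list had medians of -0.40 and 0.45 over 24 genes and 5 negative differences at an unadjusted p under 0.05, Gfap among them, and 0 positive. Immediate early genes, which dissociation can induce, had medians of -0.18 and 0.27 over 33 genes, and their part in these values was not tested.

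For other cell types, no member of any list was called for the difference with all 12 libraries. The choroid plexus list had a median of -3.76 in hippocampus and -1.24 in cortex, with 22 of 39 genes falling in hippocampus and 0 in cortex, and 17 negative differences at an unadjusted p under 0.05. Without cortical control 1 the cortical median was -0.26, that of the difference -3.93, and 7 of 37 were called. Ttr, the transthyretin that choroid plexus secretes, held 178400.0, 88969 and 171205 normalised reads in hippocampal controls against 3441, 7585 and 2691, and 81816, 5665 and 1785 in cortical controls against 3307, 9783 and 369. Its hippocampal groups did not overlap. The fit used a single estimate of the spread within all 4 groups, the cortical ones included. With it, the hippocampal effect of Ttr was short of the threshold (-5.08 ± 1.54, adjusted p = 0.133, limma).

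Oligodendrocyte genes had medians of -0.75 and -0.16 over 24 genes, 0 differences at an unadjusted p under 0.05, and 2 alike genes, both lower, Cryab and the myelin enzyme Cnp (-0.38 in hippocampus and -0.51 in cortex, a call that 8 of the 12 fits without 1 library lost, at most to an adjusted p of 0.128). Their 7 markers summed to 25116 to 53003 normalised reads in hippocampal controls, 17781 to 34483 in hippocampal libraries labelled knockout, 25339 to 39820 in cortical controls and 19327 to 42393 in cortical libraries labelled knockout, and none was at 0 in all 12 libraries. Cryab is made by oligodendrocytes as well as astrocytes, and the part of their RNA in its values was not tested. Vascular genes had medians of -0.099 and 0.62, and neuronal genes 0.065 and -0.26.

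In the remaining lists none of the members was called for the difference, and the median difference was positive for potassium, water and gap junction channels (0.30), FGF signalling (0.29), lipid handling (0.27), secreted synapse regulators (0.22), Notch (0.13), Wnt (0.082), axon guidance (0.086), energy and redox metabolism (0.11) and oligodendrocyte precursors (0.44). It was negative for ependymal cilia genes (-1.03), intermediate filament genes (-0.70), neural progenitors (-0.31), microglia (-0.30), BMP and TGF-beta signalling (-0.19) and purine, glucocorticoid and thyroid hormone genes (-0.044). Of all genes tested, 3.96% had a positive and 3.99% a negative difference at an unadjusted p under 0.05, and 1.15% were alike and higher and 0.5% alike and lower, against which the counts of each list are to be read; no test of a list was made.

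**Figure D5:**
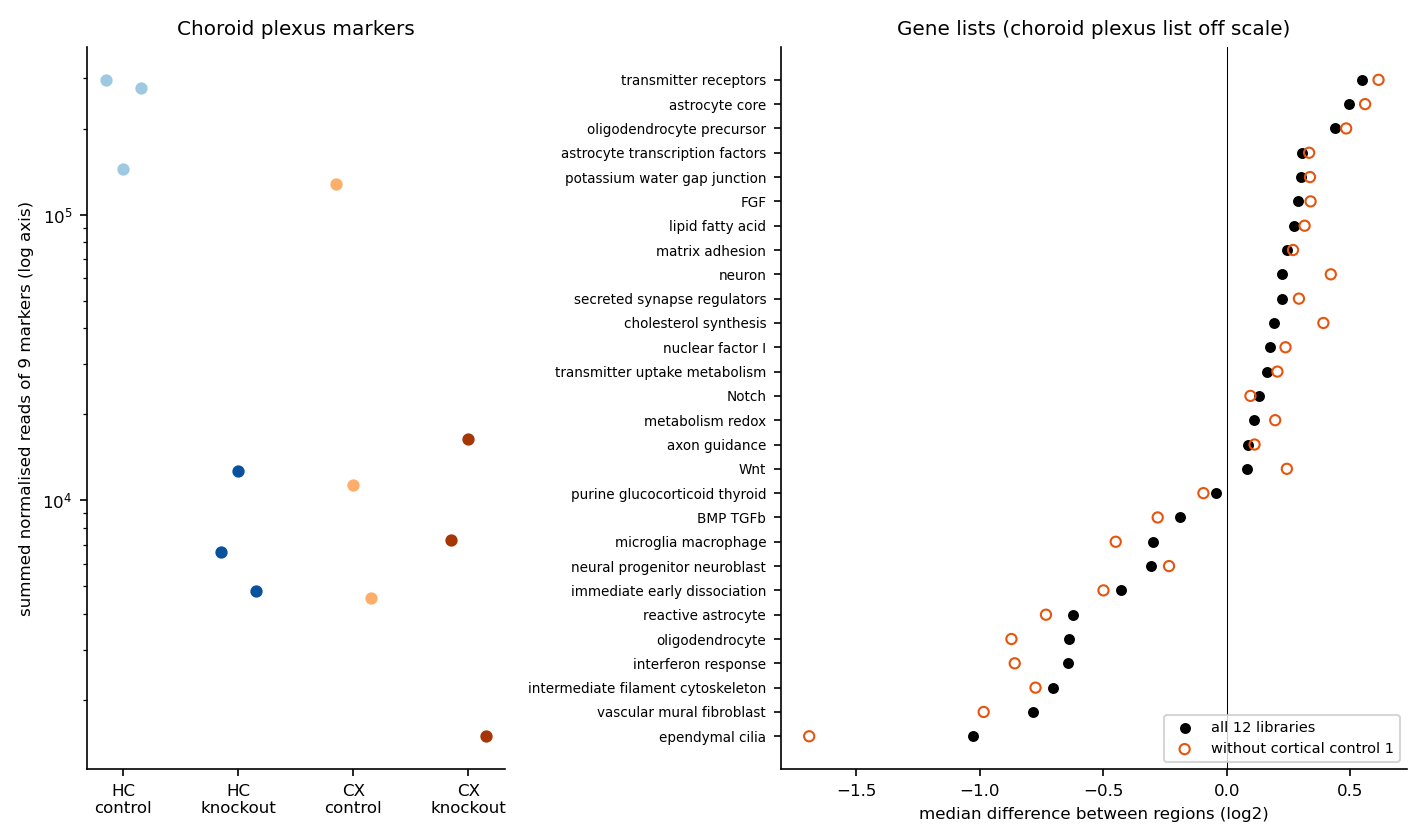
Left, summed normalised reads of 9 choroid plexus markers (log axis) in each library by group. Cortical control 1, at 127806, lies below the hippocampal controls, of which the lowest is 143809, but nearer to them than to the other cortical libraries. Right, median difference between the hippocampal and the cortical genotype effect (x axis, log2) of 28 gene lists with all 12 libraries (filled) and without cortical control 1 (open); every list keeps its sign, and the ependymal, interferon-response and neuronal lists are among those that move.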

How the data were processed

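Gene tables of 12 sorted-astrocyte RNA-seq libraries were used. Reads were aligned with STAR 2.5.0a to mm10 and normalised with DESeq2 1.20.0, per the submitters' processing notes; the deposited values are signal, normalised read counts per gene, with no strand setting given in the sources used here. All values were whole multiples of 1 step per library within a tolerance of 0.01, so whole reads were recovered and rescaled by median-of-ratios size factors over the 12 libraries. For cortical control 2 the step was close to 1. Of 24421 names, 27 had become dates and 23350 matched GENCODE vM21, which gave the gene coordinates.

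Genes with at least 20 normalised reads in at least 3 libraries were tested on log2(value + 5), which understates changes of low genes, with limma 3.58.1 (R 4.3.3, intensity trend, robust, one mean per group, two-sided, Benjamini-Hochberg, threshold 0.05). edgeR 4.0.16 and DESeq2 1.42.0 on the recovered counts, limma-voom, other filters, constants, scalings and libraries were alternatives; the fits were tested on simulated data. Named genes were fixed family, marker and targeted genes, the 5 with the smallest p for the difference (no gene passing), the 10 higher and 10 lower alike genes with the smallest p for the averaged effect (mean CPM of at least 5), and up to 4 alike genes per list; 1 of these is not reported here. The comparison, the members, the rule and the 29 lists were chosen with earlier results of these data known. The tables list 2 repeated names, kept as separate rows. Promoter sequences came from RefSeq.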

Additional observations from a re-analysis of the deposited data

How the results depend on the processing

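For the difference between regions, 0 genes passed in limma under other filters, constants, scalings, all 24 libraries or a choroid plexus covariate and in edgeR; 2 passed with reads thinned to equal depth, 34 in DESeq2 and, added after its choroid plexus reads were seen, 28 in edgeR and 150 in DESeq2 without cortical control 1. Leaving out 1 library gave 0 to 42 (42 without cortical control 1; 9 without hippocampal control 3). Hippocampal calls (531) were 831 in DESeq2, 839 in DESeq2 without cortical control 1, 305 with all 24 libraries, 308 with an absolute log2 above 1 and 0 with the covariate, and 197 to 571 without 1 library (255 without control 1; 331, 292 and 197 without knockout 1, 2 and 3). Cortical calls (74) were 158 in DESeq2, 126 in limma-voom, 49 with all 24 libraries, 44 in edgeR and 121 in DESeq2 without cortical control 1, and 28 to 128 without 1 library (36 and 28 without control 2 and 3; 38, 28 and 38 without knockout 1, 2 and 3; 128 without hippocampal control 1). Averaged calls (548) were 837 in DESeq2, 222 with an absolute log2 above 1, 23 with the covariate, 325 in edgeR without cortical control 1 and 363 to 602 without 1 library (363 without cortical knockout 3). Alike genes (205) were 315 in DESeq2, 94 with all 24 libraries, 6 with the covariate and 121 to 251 without 1 library (121 without cortical control 1; 129 without hippocampal knockout 3; 133 and 124 without cortical knockout 2 and 3). The cause of these shifts was not tested, and in hippocampus the covariate and the genotype cannot be told apart. Under the covariate the averaged effect of Nfix was -0.077 (adjusted p = 0.974) and that of Ttr 1.00 (adjusted p = 0.377), both with the sign turned. Of the 52 named genes with an averaged call, 38 were called in all 12 fits without 1 library.

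Deviations of same-numbered libraries correlated at -0.13 to 0.24 in the 6 pairs of one genotype (hippocampus with cortex) and at -0.11 to 0.33 in the 12 pairs of different genotype; since not every pair was over 0.1, the labels' numbers were not taken to pair the libraries. With the replicate number as a block 8 genes passed for the difference, 14 with a block within genotype, and 310 genes were alike. Depth limits low genes such as Islr, since cortical libraries held at most 7179349 reads.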

Other observations

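The other 2 regions of the series, olfactory bulb and brainstem, with 3 libraries of each genotype, were fitted with all 24 libraries for the genes described above, and give values that belong to no comparison of the report. Of the 205 alike genes, 181 (88.3%) had the same sign in olfactory bulb, beside 58.6% of all genes tested there, and 163 (79.5%) in brainstem, beside 59.9%. In brainstem 13 of the 205 passed the threshold (6.34%, beside 0.691% of all 11865 genes), and in olfactory bulb 1 (0.488%, beside 0.0843%). Tprkb was the gene in olfactory bulb, with means of 1740 and 559.6 normalised reads and an effect of -1.62 (adjusted p = 0.000304, limma), while in brainstem it had 0.27.

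Genes named for a difference between hippocampus and cortex took no common course elsewhere. Prelp had -1.09 in olfactory bulb (adjusted p = 0.0595, limma) and fell in brainstem (-0.99, adjusted p = 0.0350), both nearer to its cortical than to its hippocampal effect. Kcnip3 had -0.45 and 0.13, Slc5a3 -0.39 and 0.022, Islr 0.50 and -0.30, and Klhl15 0.19 and -0.0100, none past the threshold. Gfap fell in olfactory bulb (-1.16, adjusted p = 0.0397) and had 0.42 in brainstem (adjusted p = 0.401). Tspan18 rose in brainstem (2.23, adjusted p = 0.00130), where its control mean was 2.82 normalised reads against 34.2. These differences between regions were not tested.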
